A study of Canis lupus familiaris with 10 samples.

Results

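Condensin and cohesin are ring-shaped protein complexes built on paired SMC (structural maintenance of chromosomes) ATPases, and 10 of their subunit genes were followed here in cultured hemangiosarcoma cells of dogs. The 10 genes were given by name and were all represented on the Affymetrix Canine_2 array, by 27 of its 42924 probe sets besides the controls. Condensin was represented by 13 probe sets of 5 genes (SMC4, SMC2, NCAPD2, NCAPG and NCAPH), and cohesin by 14 probe sets of 5 genes (SMC1A, SMC3, RAD21, STAG1 and STAG2). SMC4 was chosen by its difference between the breed groups in these same arrays, and its companions were added for being partners of it or of the related complex. The values that selected SMC4 are therefore given as a description, with no test. Probe sets of a gene are lettered in the order of the array's annotation (SMC4-A, SMC4-B).

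Hemangiosarcoma is a malignant tumor of blood vessel-forming cells, and all 10 cultures came from splenic tumors of adult pet dogs, each hybridized once. Golden Retrievers supplied 6 of the cultures, from Frog, Journey, Tucker and the dogs numbered CHAD-G4, CHAD-G6 and CHAD-G8, 3 males and 3 females by the study's record, and Frog and Journey were distantly related. DD-1 was an F1 dog with 1 Golden Retriever parent, called a mixed breed by its label, and it stood in no group. The non-Golden Retriever group held 3 males, CHAD-P9 (Portuguese Water Dog), Dal-4 (Dalmatian) and Joey (Rottweiler). The cells were frozen at the earliest passages at hand, and neither treatment nor genotype differed by design.

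Condensin compacts chromosomes for mitosis. Its SMC2 and SMC4 arms are shared by condensin I, which adds NCAPD2, NCAPG and NCAPH, and by condensin II, which adds NCAPD3, NCAPG2 and NCAPH2. Cohesin holds sister chromatids together from replication to anaphase and extrudes chromatin loops in interphase. In it SMC1A and SMC3 form the arms, the kleisin RAD21 closes the ring, and STAG1 or STAG2 joins RAD21 as alternative subunits. STAG2, RAD21 and SMC1A are known as mutated genes of human myeloid and other cancers, and condensin genes are known to be transcribed most in dividing cells.

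The arrays were alike in scale, with median log2 signals of 5.77 to 5.83 and a correlation of 0.946 to 0.987 between any pair of arrays. A probe set was tested if 3 or more arrays gave it a signal over their own 40th percentile, which stood at 5.02 to 5.16 in log2 units, and 26891 probe sets passed. Of the endothelial markers fixed for the study, 3 of 8 genes (CDH5, KDR and CLDN5) lay above that level in all dogs, and PECAM1, TEK, ESAM and EMCN lay above it in none. Fibroblast collagens were strong, with COL1A2 between 14.00 and 14.32, and 5 of 6 genes of that list lay above the level in all dogs. Of 7 named leukocyte genes, 4 (CD14, CD68, CSF1R and CD3E) also did so and ITGB2 in 8 dogs, while MS4A1 and the defining marker PTPRC, between 4.60 and 4.96, did so in none. The part of such cells in the results was not tested. The cells of Dal-4 stood apart, and many results that rest on them, though not all, are given with and without this dog. LUM, a matrix proteoglycan, had a log2 signal of 4.40 in Dal-4 and of 12.47 in Tucker, the next lowest dog. Of 3 probe sets named for the X-linked gene EIF2S3, the one that was at 2.95 in Dal-4, recorded as a male, was at 3.08 to 3.33 in the 3 females and at least 10.15 in the other 6 males. At that probe set the recorded sexes lay far apart, and Dal-4 alone lay with the dogs of the other recorded sex. At the remaining pair Dal-4 had 12.56 and 11.47, below the females (12.98 to 13.23 and 12.01 to 12.12). There the male CHAD-G4 lay at the females' level with 13.18 and 12.19, so recorded sexes overlapped at this pair. The females were thus low at the first probe set and high at the pair, and the reason was not tested. Whether cells or RNA per cell differed cannot be told apart in such bulk cultures, in which a higher signal can come from more expressing cells or from more RNA in each.

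SMC4, the condensin arm shared by both condensins (gene on chromosome 34 of the assembly UU_Cfam_GSD_1.0), was detected in every dog by both of its probe sets. At the first, SMC4-A, log2 signals were 9.62, 9.21 and 9.11 in CHAD-G4, CHAD-G6 and CHAD-G8, 9.51, 9.39 and 9.11 in Frog, Journey and Tucker, 9.69 in DD-1, and 8.45, 8.47 and 8.64 in CHAD-P9, Dal-4 and Joey. All 6 Golden Retrievers and the F1 dog lay above all 3 non-Golden Retrievers at this probe set. The mean was 9.32 ± 0.214 in Golden Retrievers and 8.52 ± 0.103 in non-Golden Retrievers (SD, n = 6 and 3), a difference of 0.80 log2 units or 1.75-fold, which is the difference that chose the gene.

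The second SMC4 probe set, SMC4-B, had 9.93, 9.39, 9.08, 10.08, 9.60 and 9.22 in the 6 Golden Retrievers in the same order, which holds throughout, 9.60 in DD-1, and 9.02, 9.51 and 9.05 in CHAD-P9, Dal-4 and Joey. Here the groups overlapped, because Dal-4 lay above 3 of the Golden Retrievers. The group means were 9.55 ± 0.397 in Golden Retrievers and 9.20 ± 0.277 in non-Golden Retrievers (SD, n = 6 and 3), 0.35 log2 units apart with Dal-4 and 0.51 without it. The 2 probe sets moved together over the 10 dogs (r = 0.69, rho = 0.79, permutation p = 0.0310, adjusted p = 0.0482 over the 28 pairs of probe sets of 1 gene), and r was 0.95 within the 6 Golden Retrievers. Taken as deviations from each probe set's own mean, the first ran below the second by 0.72 in Dal-4 and above it by 0.42 in DD-1, and the other dogs lay between.

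SMC2, the partner arm of SMC4 (chromosome 11), gave no signal well above background in any culture at either of its probe sets. Low signal at these probe sets alone does not show that its transcript was missing. Its probe set SMC2-A ranged between 2.51 and 2.89 over all dogs, and SMC2-B was 3.83, 3.50, 3.42, 4.58, 3.26 and 3.14 in the Golden Retrievers, 3.63 in DD-1 and 3.02, 4.27 and 3.29 in the non-Golden Retrievers. All 20 of these signals lay under the 40th percentile of their array, so the gene was left out of the tests and its dog-to-dog pattern carries no measured order. The same held for 1 of the 5 RAD21 probe sets, RAD21-E, at 3.76 to 4.18. The other 24 probe sets were tested.

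**Figure D1:**
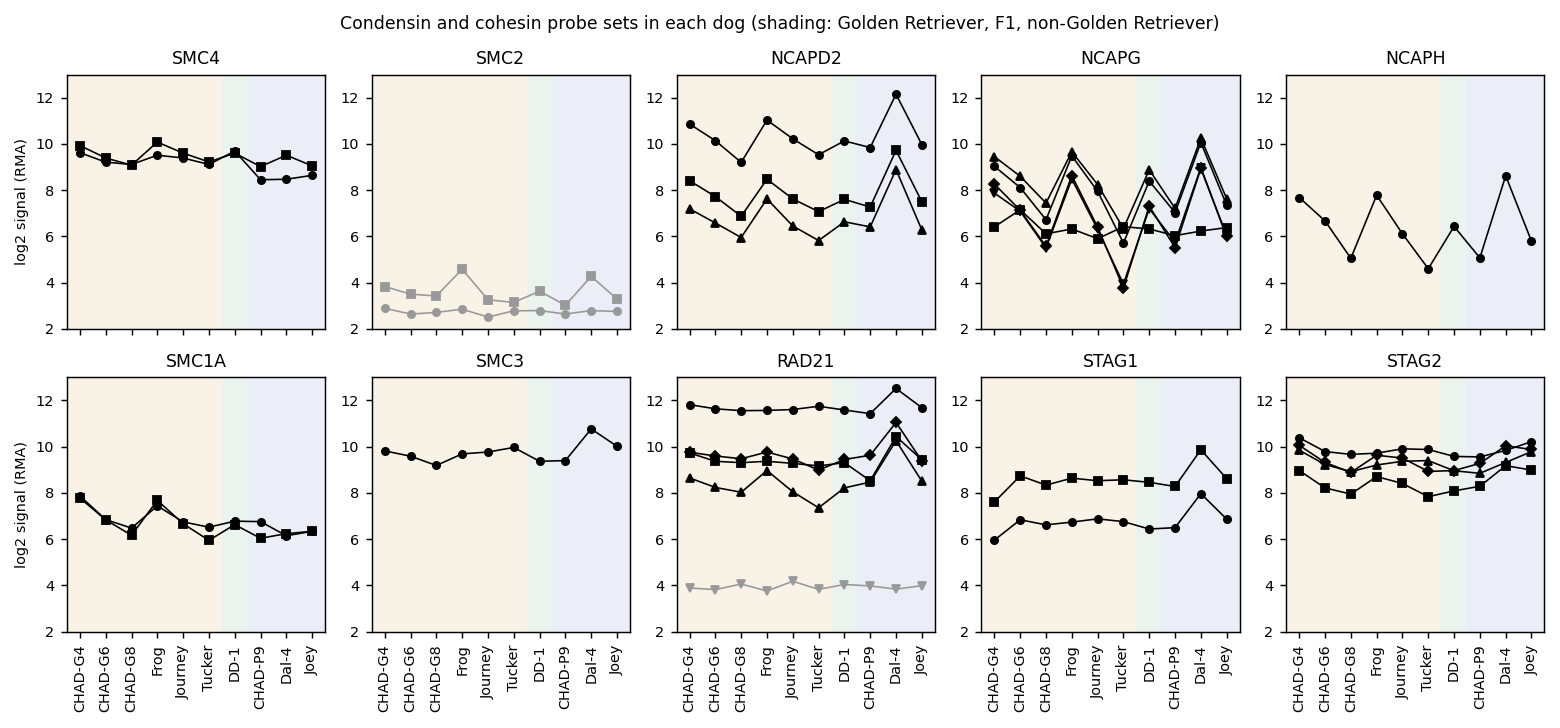
Log2 RMA signal of each of the 27 probe sets in the 10 dogs, 1 panel per gene with 1 line and marker per probe set; grey lines are the 3 probe sets under the detection filter, shading marks Golden Retriever, F1 and non-Golden Retriever dogs, and heights of different probe sets are not comparable. NCAPD2, NCAPH and 4 of the 5 NCAPG probe sets peak in Dal-4 and are high in Frog and CHAD-G4, while SMC4 stays within 1.25 log2 units.

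The 3 subunits that belong to condensin I alone varied most between dogs. NCAPH, its kleisin (chromosome 17), had log2 signals of 7.68, 6.67 and 5.05 in CHAD-G4, CHAD-G6 and CHAD-G8, 7.78, 6.11 and 4.60 in Frog, Journey and Tucker, 6.43 in DD-1, and 5.07, 8.62 and 5.79 in CHAD-P9, Dal-4 and Joey. Dal-4 lay above and CHAD-P9 near the bottom of the Golden Retriever values, so the 3 non-Golden Retrievers spanned nearly the whole range. From Tucker to Dal-4 the span was 4.02 log2 units, but in Tucker, CHAD-G8 and CHAD-P9 the signal was under the detection level, so their order and the size of that span are not measured exactly.

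NCAPG, a HEAT-repeat subunit that contacts DNA (chromosome 3), had 5 probe sets, and 4 of them ranked the dogs much alike. At NCAPG-A the signals were 9.03, 8.11, 6.72, 9.48, 7.95 and 5.71 in the Golden Retrievers, 8.39 in DD-1, and 7.03, 10.06 and 7.35 in the non-Golden Retrievers. Again Dal-4 was highest and Tucker lowest, 4.35 log2 units apart, and 3.91 apart at NCAPG-C. At NCAPG-D and NCAPG-E Tucker, at 3.77 and 3.94, was under the detection level, so the spans and SDs there are not measured exactly. The fifth, NCAPG-B, was flat, between 5.90 in Journey and 7.15 in CHAD-G6, with an SD of 0.336 over dogs where its companions had 1.23 to 1.62. The 4 correlated at 0.99 or above in all 6 pairs, and the fifth correlated with them at 0.08 to 0.14.

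NCAPD2, the other HEAT-repeat subunit (chromosome 27), was likewise highest in Dal-4, Frog and CHAD-G4, with a smaller span, but at NCAPD2-A and NCAPD2-B CHAD-G8 and not Tucker was lowest. Its strongest probe set, NCAPD2-A, had 10.86, 10.14, 9.20, 11.03, 10.22 and 9.53 in the Golden Retrievers, 10.13 in DD-1, and 9.84, 12.15 and 9.97 in the non-Golden Retrievers. Dal-4 was again alone at the top, 1.12 log2 units above Frog, and the remaining non-Golden Retrievers lay inside the Golden Retriever range. The 3 NCAPD2 probe sets spanned 2.85 to 3.07 log2 units and correlated at 0.98 or above.

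Of 9 probe sets of NCAPD2, NCAPG and NCAPH, Dal-4 was highest at 8 and Tucker lowest at 6. Their median SD over the 10 dogs was 1.23, against 0.414 for SMC4, 0.475 for the 13 cohesin probe sets and 0.328 for all tested probe sets. Only 1.31% of all tested probe sets varied more than NCAPG-D, which was under the detection level in Tucker, whereas 43.0% and 28.7% varied more than the SMC4 probe sets.

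In cohesin, the arm SMC1A (X chromosome) followed the condensin I subunits in all dogs except Dal-4. Its probe set SMC1A-B had 7.78, 6.84, 6.17, 7.68, 6.67 and 5.95 in the Golden Retrievers, 6.63 in DD-1, and 6.04, 6.24 and 6.34 in CHAD-P9, Dal-4 and Joey. CHAD-G4 and Frog were highest, and the 3 non-Golden Retrievers lay among the lower Golden Retrievers. The second probe set, SMC1A-A, moved with it (r = 0.89, rho = 0.71, permutation p = 0.00187, adjusted p = 0.00349), but r was 0.50 without CHAD-G4 and Frog, and at this one Dal-4 was the lowest dog at 6.15.

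SMC3, the other arm (chromosome 28), went the opposite way in Dal-4. Its single probe set SMC3-A had 9.82, 9.59, 9.19, 9.69, 9.77 and 9.97 in the Golden Retrievers, 9.37 in DD-1, and 9.40, 10.77 and 10.02 in CHAD-P9, Dal-4 and Joey. Apart from Dal-4 all dogs fell within 0.83 log2 units of each other.

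RAD21, the kleisin that separase cuts at anaphase (chromosome 13), was the strongest and steadiest at RAD21-A. Signals there were 11.82, 11.64, 11.56, 11.57, 11.61 and 11.75 in the Golden Retrievers, 11.59 in DD-1, and 11.43, 12.52 and 11.69 in the non-Golden Retrievers. Dal-4 was highest at all 4 tested RAD21 probe sets, and it reached 10.26 at RAD21-C, where the Golden Retrievers had 7.36 in Tucker, a median of 8.15 and 8.97 in Frog, and CHAD-P9 and Joey had 8.47 and 8.51. This dog carried much of the correlation between them. The 6 pairs correlated at 0.70 to 0.96 over all dogs, yet RAD21-A and RAD21-C, at r = 0.73 (rho = 0.30, permutation p = 0.0686, adjusted p = 0.0863), had r = -0.20 without Dal-4. Without that dog r was also -0.25 for RAD21-A with RAD21-D, and 0.18 and 0.15 for RAD21-B with RAD21-C and RAD21-D. It stayed at 0.76 for RAD21-A with RAD21-B and at 0.89 for RAD21-C with RAD21-D.

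The alternative subunits STAG1 (chromosome 23) and STAG2 (X chromosome) parted company in CHAD-G4. STAG1-B had 7.61, 8.74 and 8.34 in CHAD-G4, CHAD-G6 and CHAD-G8, 8.64, 8.53 and 8.57 in Frog, Journey and Tucker, 8.46 in DD-1, and 8.28, 9.87 and 8.62 in CHAD-P9, Dal-4 and Joey. CHAD-G4 was the lowest dog and Dal-4 the highest at both STAG1 probe sets, which correlated at r = 0.98 (rho = 0.78, permutation p = 2.6e-04, adjusted p = 5.6e-04). Without CHAD-G4 and Dal-4 their r was 0.73. STAG2-A had 10.39, 9.79, 9.67, 9.72, 9.91 and 9.88 in the Golden Retrievers, 9.58 in DD-1, and 9.56, 9.84 and 10.22 in the non-Golden Retrievers. Here CHAD-G4 was highest, as at 3 of the 4 STAG2 probe sets, and Joey came next.

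The 4 STAG2 probe sets fell into pairs. STAG2-A and STAG2-C correlated at r = 0.97 (rho = 0.98, permutation p = 1e-05, the smallest that 100000 resamples can give, adjusted p = 3.1e-05), and STAG2-B and STAG2-D at r = 0.98 (rho = 0.94, permutation p = 4.0e-05, adjusted p = 1.0e-04). Across the pairs r was 0.59 to 0.70. Probe sets whose names end in s_at hold probes that match more than 1 transcript, so a related transcript could add to them. Here STAG2-A, STAG2-B and STAG2-D have this ending and STAG2-C does not, so it stood in both pairs. Why the pairs differed was not tested.

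Over all 28 pairs of probe sets of 1 gene, the median r was 0.89 and 18 pairs passed at an adjusted p under 0.05. The pairs share their arrays, and no gene's values are independent of the quality of the RNA on them.

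The breed comparison asked whether cells from Golden Retriever tumors differ from those of other breeds. Besides SMC4, limma called 0 of 22 tested probe sets of the other genes at an adjusted p under 0.05. At an unadjusted p under 0.05 the count was also 0 of 22, by limma and by the unmoderated test that the methods name. In the background, 0.00372% of all 26891 tested probe sets passed the adjusted threshold and 6.32% the unadjusted one. The smallest adjusted p of the 22 was 0.779. Of these 22, 5 were higher and 17 lower in Golden Retrievers, with a median difference of -0.33, beside 12697 higher and 14194 lower and a median of -0.02 over all tested probe sets. Without Dal-4 the same 22 split into 16 higher and 6 lower with a median of 0.22, beside 12532 higher and 14359 lower and a median of -0.02 over all. The first SMC4 probe set was the only 1 of 24 whose groups did not overlap, beside 2.45% of all tested probe sets, and that count rests on the probe set that chose the gene. P-values measure the spread between dogs, each with 1 culture and 1 array, and the number of arrays limits the precision.

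SMC1A was the member with the largest positive difference after SMC4, 0.64 log2 units at SMC1A-B (SE 0.406, 95% interval -0.27 to 1.55, limma adjusted p = 0.798), with means of 6.85 ± 0.756 in Golden Retrievers and 6.21 ± 0.151 in non-Golden Retrievers (SD, n = 6 and 3). It kept its sign at both probe sets with any dog left out. The largest negative one was RAD21-C, -0.86 (SE 0.452, 95% interval -1.87 to 0.15, adjusted p = 0.779), with means of 8.22 ± 0.557 in Golden Retrievers and 9.08 ± 1.02 in non-Golden Retrievers (SD, n = 6 and 3), and it was -0.27 without Dal-4. SMC3 differed by -0.39 (SE 0.283, adjusted p = 0.822) and STAG1-B by -0.52 (SE 0.359, adjusted p = 0.815), and without Dal-4 these were -0.04 and -0.05.

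The condensin I subunits had the widest errors. NCAPH differed by -0.18 (SE 0.920, 95% interval -2.25 to 1.89, adjusted p = 0.983), and its SD was 1.32 in Golden Retrievers and 1.88 in non-Golden Retrievers (n = 6 and 3). Its sign turned to 0.88 without Dal-4. All 3 NCAPD2 probe sets, -0.59 to -0.47 with every dog, likewise turned positive, to 0.26 to 0.31, without that dog. A difference of this size between the groups was not detectable with such a spread.

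**Figure D2:**
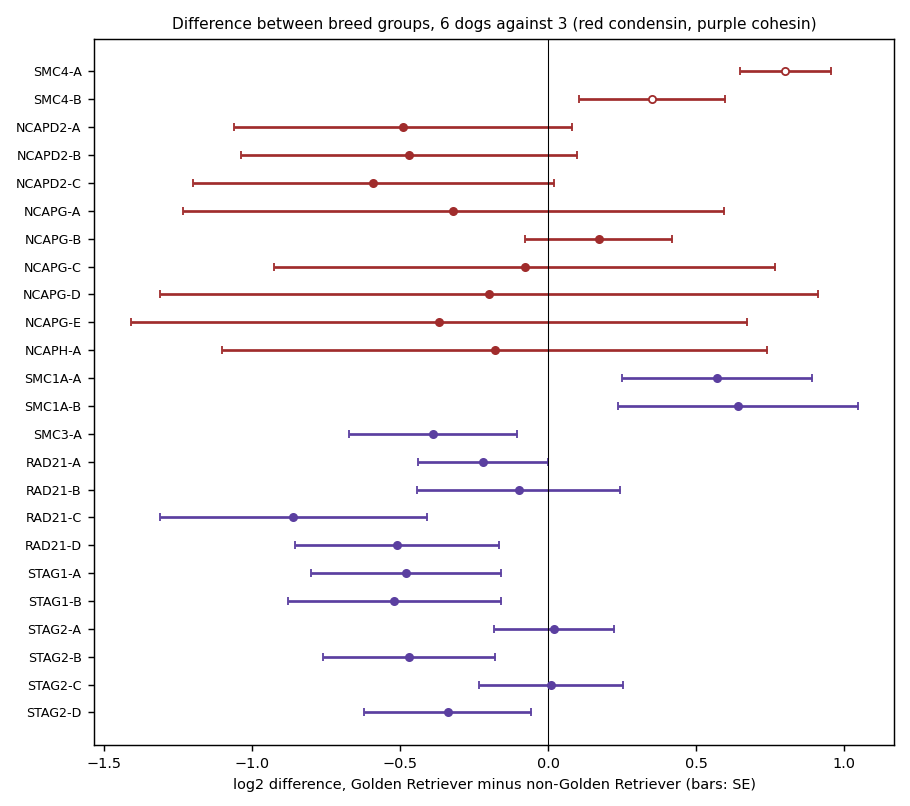
Log2 difference of each of the 24 tested probe sets, taken as 6 Golden Retrievers minus 3 dogs of other breeds, with bars for the SE from limma; red is condensin, purple is cohesin, and open circles are SMC4, which was chosen by this difference. SMC4 and SMC1A lie to the right of 0, RAD21, STAG1 and SMC3 to the left, and the bars of NCAPH and of 4 NCAPG probe sets are the widest.

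To set condensin beside cohesin, each probe set was taken as its deviation from its own mean over 10 dogs, averaged over the tested probe sets of a gene and then over genes. NCAPD2, NCAPG and NCAPH together deviated by 0.93, 0.17 and -1.08 log2 units in CHAD-G4, CHAD-G6 and CHAD-G8, 1.14, -0.25 and -1.54 in Frog, Journey and Tucker, 0.09 in DD-1, and -0.90, 1.95 and -0.51 in CHAD-P9, Dal-4 and Joey. The high dogs thus belonged to both groups, and so did the low ones.

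Cohesin moved over a smaller range, by 0.21, -0.03, -0.35, 0.19, -0.03 and -0.20 in the Golden Retrievers, -0.23 in DD-1, and -0.30, 0.67 and 0.07 in the non-Golden Retrievers. It was highest in Dal-4 as well. With SMC4 counted in, condensin averaged -0.04 ± 0.872 in Golden Retrievers and 0.03 ± 1.19 in non-Golden Retrievers, and cohesin -0.03 ± 0.219 in Golden Retrievers and 0.15 ± 0.489 in non-Golden Retrievers (SD, n = 6 and 3). Condensin minus cohesin differed by 0.11 between the groups, less than the SD in either, and by 0.53 without Dal-4.

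SMC4 did not follow its condensin partners in Dal-4. As a gene it deviated by 0.49, 0.02, -0.19, 0.51, 0.21 and -0.12 in the Golden Retrievers, 0.36 in DD-1, and -0.55, -0.29 and -0.44 in CHAD-P9, Dal-4 and Joey. Set against the mean of NCAPD2, NCAPG and NCAPH it lay 2.24 log2 units lower in Dal-4 and 1.42 higher in Tucker, the extremes of the 10 dogs. The SD over dogs was 0.381 for SMC4 and 1.09 for that mean, so this difference largely follows the mean. In Tucker SMC4 itself lay slightly below its own mean, and NCAPH, NCAPG-D and NCAPG-E were under the detection level there.

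**Figure D3:**
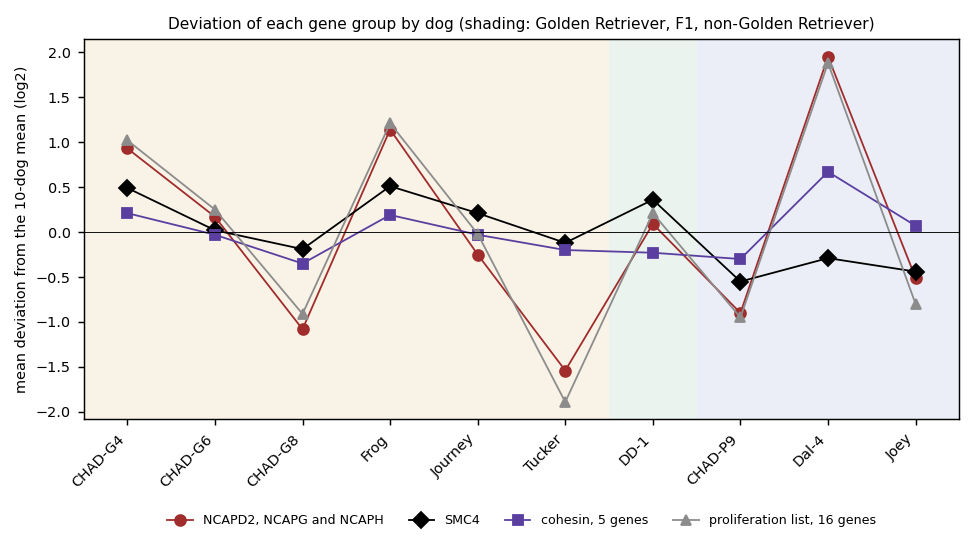
Mean deviation in log2 units from the mean over 10 dogs for NCAPD2, NCAPG and NCAPH, for SMC4, for the 5 cohesin genes and for 16 proliferation genes, by dog, with Golden Retriever, F1 and non-Golden Retriever dogs shaded; lines only join the dogs. The 3 condensin I subunits overlie the proliferation genes, from -1.54 in Tucker to 1.95 in Dal-4, while SMC4 in Dal-4 is at -0.29.

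Genes of the dividing cell moved with condensin I. Of a list of 20 proliferation genes 16 were tested, among them TOP2A, the mitotic topoisomerase, CDK1, the mitotic kinase, and CCNA2, a cyclin. Their mean deviation was 1.02, 0.25, -0.91, 1.21, -0.02 and -1.89 in the Golden Retrievers, 0.21 in DD-1, and -0.95, 1.88 and -0.80 in CHAD-P9, Dal-4 and Joey. Dal-4 was highest at 15 of the 16 genes and Tucker lowest at 14.

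In 9 relations with this list, 4 genes passed at an adjusted p under 0.05 over the 10 dogs. NCAPG had r = 0.99 (rho = 0.98), and NCAPH had r = 0.98 (rho = 0.99), both with a permutation p of 1e-05 and an adjusted p of 4.5e-05. NCAPD2 had r = 0.91 (rho = 0.96, permutation p = 3.0e-05, adjusted p = 9.0e-05), and RAD21 had r = 0.81 (rho = 0.92, permutation p = 1.8e-04, adjusted p = 4.0e-04). Without Dal-4 and Tucker, the dogs farthest from the median of the list, these r were 0.98, 0.98, 0.93 and 0.80, and within the 6 Golden Retrievers they were 0.99, 0.98, 0.93 and 0.96. The RAD21 probe sets differed in this. RAD21-A, the strongest, had r = 0.56 (rho = 0.38, permutation p = 0.0833, adjusted p = 0.125 over 24 probe sets). RAD21-B, RAD21-C and RAD21-D had r of 0.71, 0.82 and 0.80. Within the 6 Golden Retrievers r was -0.05 at RAD21-A and 0.71, 0.96 and 0.95 at the others. The list was compared after an earlier look at these arrays, and list and members share the same RNA.

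SMC4 and SMC1A related to the list in all dogs but Dal-4. SMC4 had r = 0.48 (rho = 0.50, permutation p = 0.158, adjusted p = 0.204) over 10 dogs and r = 0.80 over the 9 others (exact permutation test, adjusted p = 0.0168). SMC1A had r = 0.52 (rho = 0.39, permutation p = 0.128, adjusted p = 0.191) and r = 0.91 without Dal-4 (exact permutation test, adjusted p = 4.1e-04). The SMC4 probe sets differed in this, with r = 0.75 (rho = 0.72, permutation p = 0.0128, adjusted p = 0.0280 over 24 probe sets) at SMC4-B and r = 0.20 (rho = 0.36, permutation p = 0.583, adjusted p = 0.666) at SMC4-A, the one that chose the gene. Much of that gap came from Dal-4. Without it r was 0.87 at SMC4-B and 0.67 at SMC4-A, and within the Golden Retrievers 0.87 and 0.86. STAG1, STAG2 and SMC3 had r of 0.33, 0.52 and 0.44 (permutation p = 0.356, 0.123 and 0.212), and for SMC3 and STAG1 the sign turned without Dal-4, to -0.04 and -0.31. The STAG2 probe sets parted here too, with r of 0.14 and 0.17 at STAG2-A and STAG2-C and of 0.70 and 0.67 at STAG2-B and STAG2-D.

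**Figure D4:**
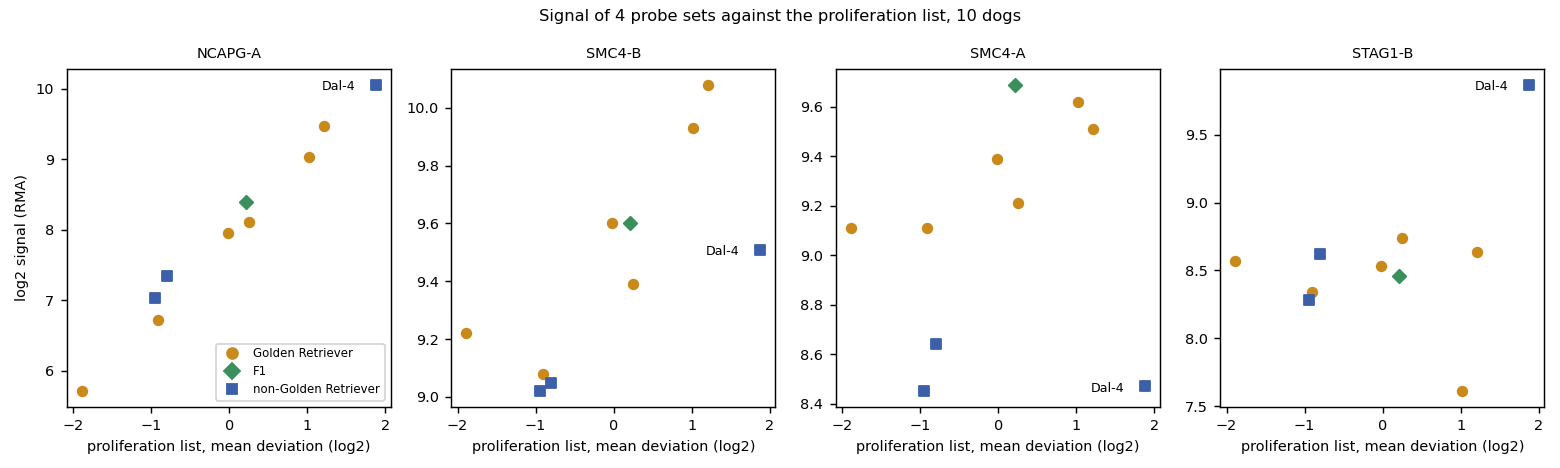
Log2 signal of 1 NCAPG, 2 SMC4 and 1 STAG1 probe sets against the mean deviation of the proliferation list, 1 point per dog, with Golden Retrievers as circles, the F1 dog as a diamond and non-Golden Retrievers as squares; each vertical axis has its own scale. NCAPG follows the list in all 10 dogs (r = 0.99), and Dal-4 lies below the other dogs' trend at both SMC4 probe sets.

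Among the members themselves 7 of 36 pairs of genes passed at an adjusted p under 0.05. The 3 pairs of condensin I subunits had r of 0.88 to 0.98, and RAD21 with each of them had r of 0.78 to 0.93 (largest adjusted p = 0.0123). The remaining pair was SMC4 with SMC1A (r = 0.83, rho = 0.73, permutation p = 0.00152, adjusted p = 0.00912), which had r = 0.69 without CHAD-G4 and Frog and r = 0.94 within the Golden Retrievers. SMC4 with its condensin I partners had r of 0.22 to 0.49, and 0 of these 3 pairs passed. Those low values rest on Dal-4. Without it r was 0.74 to 0.80, and within the Golden Retrievers 0.85 to 0.97, given with no test. Within cohesin r ran from -0.54 for SMC1A with STAG1 to 0.76 for SMC3 with RAD21, and 0 of 10 pairs passed. Without Dal-4 the r of these named pairs were -0.52 and 0.12.

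The genes most like SMC4 over the 10 dogs differed between its probe sets, and each is given as a description with n = 10. For SMC4-A they were DNAJC1, an endoplasmic reticulum co-chaperone (r = 0.94), KLK12, a serine protease (0.91), LOC476602 (0.90), ANKS1B (0.89) and LSM10, a component of the histone pre-mRNA processing particle (0.86). For SMC4-B they were HROB, a factor in homologous recombination (0.92), SFXN4, a mitochondrial sideroflexin (0.92), ORC6, a subunit of the origin recognition complex (0.91), FNTB, a farnesyltransferase subunit (0.90), and PNPLA8, a phospholipase (0.89). HROB, at 4.76 to 5.20, and KLK12, at 4.77 to 5.55, lay near the detection level, and ORC6 fell to 4.88 in CHAD-P9. The order of dogs at such signals is not measured exactly. No gene stood in both lists, and no other member of condensin or cohesin was among them. All genes of the SMC4-A list were also higher in Golden Retrievers, by 0.33 to 0.82 log2 units, and those of the SMC4-B list by 0.10 to 0.48. Likeness to SMC4-A, which was chosen by its breed difference, thus partly repeats that difference.

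The F1 dog DD-1 lay inside the Golden Retriever range at 22 of the 24 tested probe sets and inside the non-Golden Retriever range at 15, and at 14 it lay inside both. The range of the 3 non-Golden Retrievers was the narrower at 12 of the 24 and the wider at 12. The exceptions to the Golden Retriever range were the first SMC4 probe set, where DD-1 was the highest of all dogs at 9.69, and STAG2-A, where it had 9.58 against a lowest Golden Retriever of 9.67.

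SMC1A and STAG2 lie on the X chromosome, and by the study's record only Golden Retrievers included females, with Dal-4 counted as a male in spite of its low signal at 1 EIF2S3 probe set. At all 6 probe sets of these genes the 3 female Golden Retrievers fell inside the range of the 3 males, as at SMC1A-B with 6.67 to 7.68 in females and 5.95 to 7.78 in males. However, CHAD-G4 was the highest male at each of them. The remaining male Golden Retrievers, CHAD-G8 and Tucker, lay below all 3 females at SMC1A-A, SMC1A-B, STAG2-B and STAG2-D, with 6.17 and 5.95 at SMC1A-B. At STAG2-A and STAG2-C Tucker did not. The part of sex in these signals was not tested. Among males alone, 3 dogs against 3, the SMC1A differences were 0.54 and 0.43 log2 units, and those of SMC4 were 0.76 and 0.21. Without Dal-4, 3 dogs against 2, they were 0.40 and 0.44 for SMC1A and 0.74 and 0.37 for SMC4.

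Among other genes of these pathways, taken at the strongest probe set of each, 0 passed the adjusted test. Of 15 genes listed as regulators of cohesin, 13 were lower and 2 higher in Golden Retrievers, with a median difference of -0.30, and 2 of the 15 had an unadjusted p under 0.05, beside 6.32% of all tested probe sets. PDS5A, a regulatory subunit, had 9.40, 9.50, 9.53, 9.69, 9.36 and 9.29 in the Golden Retrievers, 9.54 in DD-1, and 9.67, 10.35 and 10.25 in the non-Golden Retrievers, a difference of -0.63 (SE 0.174, unadjusted p = 0.00514, adjusted p = 0.774). Only Frog reached the lowest non-Golden Retriever value. WAPL, the cohesin release factor, averaged 9.20 ± 0.301 in Golden Retrievers and 9.76 ± 0.242 in non-Golden Retrievers (SD, n = 6 and 3), a difference of -0.56 (SE 0.202, limma unadjusted p = 0.0214, adjusted p = 0.774). Without Dal-4 these differences were -0.50 and -0.45, but the median of the list became 0.10.

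All 3 genes particular to condensin II were detected. NCAPD3 had 8.84 in Frog and 8.61 in CHAD-G4, the highest Golden Retrievers, 8.46 in DD-1, and 7.48, 9.06 and 7.84 in CHAD-P9, Dal-4 and Joey. NCAPG2 had 9.03 in Frog, 8.96 in CHAD-G4 and 8.53 in DD-1, and 6.97, 8.59 and 7.54 in CHAD-P9, Dal-4 and Joey. Dal-4 was highest at NCAPD3, but at NCAPG2 it lay below Frog and CHAD-G4. NCAPH2, in contrast, had its highest value, 8.86, in Tucker, and an SD of 0.298 over dogs. The breed differences by limma were -0.26 for NCAPD3 (adjusted p = 0.946), 0.29 for NCAPG2 (adjusted p = 0.949) and 0.12 for NCAPH2 (adjusted p = 0.948), and 0.20, 0.73 and 0.10 without Dal-4.

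The SMC5/6 complex, another SMC complex that acts in DNA repair, had 6 of 8 listed genes tested, 5 of them lower in Golden Retrievers, with a median difference of -0.46 and of 0.07 without Dal-4. Lowest in p were SLF2 with -0.59 (SE 0.283, adjusted p = 0.776) and SMC6 with -0.49 (SE 0.331, adjusted p = 0.810). Of the germ-line cohesin genes, REC8 differed by 0.25 (adjusted p = 0.851) and STAG3, near background at 4.91 to 5.31, by -0.08 (adjusted p = 0.933).

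Of 7 tested genes of the mitotic chromosome scaffold, 6 were lower in Golden Retrievers, with a median of -0.19 that became 0.45 without Dal-4. SMCHD1, an SMC-like silencing factor, differed by -0.34 (adjusted p = 0.862) and INCENP of the chromosomal passenger complex by -0.19 (adjusted p = 0.934). In the proliferation list 11 of 16 were lower, with a median of -0.21 that became 0.83 without Dal-4. TYMS, thymidylate synthase, differed by 0.50 (SE 0.468, adjusted p = 0.862) and PCNA, the replication clamp, by -0.34 (SE 0.465, adjusted p = 0.917). These medians changed sign without that 1 dog, while the median over all tested probe sets stayed at -0.02.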

How the data were processed

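RNA of 10 early-passage cultures was hybridized to Canine_2 arrays, 1 per dog. Signals were deposited on the log2 scale, after robust multiarray averaging by the authors (RMA in affy, versions not given in the sources used here). From these, 111 control probe sets were left out. Of 42924 others, symbols came from the array annotation given with the platform, which names 1 gene for 29254, several for 439 and none for 13231. Chromosomes came from UU_Cfam_GSD_1.0. Probe sets that exceeded the 40th percentile in 3 or more of the 10 arrays were fitted with limma 3.58.1 in R 4.3.3 (6 Golden Retrievers against 3 non-Golden Retrievers, DD-1 left out, two-sided, Benjamini-Hochberg over 26891 probe sets), which was tested on simulated data. Correlations used two-sided permutation tests with 100000 resamples. Alternatives were other filters, centring, variance models, placements of DD-1, males only and each dog left out. Named genes were all members, the 2 lowest p of each list and the 5 genes nearest to each SMC4 probe set. The members and lists were chosen with earlier results of these data known. Recorded sex came from the study's description of the dogs.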

Additional observations from a re-analysis of the deposited data

Results flagged for a closer look

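CHAD-G4 stood clear of the other 5 Golden Retrievers at 4 of 24 tested probe sets. STAG1 was low there, at 5.96 on STAG1-A, where the next Golden Retriever had 6.62, and at 7.61 on STAG1-B, where the next had 8.34. RAD21 was high, at 9.73 on RAD21-B, with 9.37 in the next dog, and so was STAG2, at 10.39 on STAG2-A, with 9.91 in the next. In each case the gap took up more of the group's range than a Dixon test at the 95% level allows, which chance does in about 1 of 20 groups, and 27 sets of 6 values were examined. The value was low at both STAG1 probe sets, but the other 3 RAD21 and 3 STAG2 probe sets did not pass the same test.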

How the results depend on the processing

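Under 17 alternatives, 0 of the members' probe sets besides SMC4 passed at an adjusted p under 0.05, with a smallest adjusted p of 0.369, reached without CHAD-P9. At an unadjusted p under 0.05 there were 3 of 22 without CHAD-P9, 1 without Joey and 0 in the others, when 11.7% and 5.86% of all tested probe sets passed without CHAD-P9 and without Joey. Probe sets whose groups did not overlap numbered 1 to 4 with a dog left out, 4 without CHAD-P9 and 2 without Dal-4, when 14.1% and 4.99% of all tested probe sets did not overlap. Where the count was 1, that share was 2.83% to 6.33%. SMC4, which was chosen by this contrast, was in every count. It was the only gene in each of them except without CHAD-P9, where SMC1A, SMC3 and STAG2 joined it. With 1 dog left out, differences ran from -0.90 to 0.26, -0.92 to 0.31 and -1.05 to 0.26 at NCAPD2, from -0.87 to 0.64, -0.66 to 0.87, -0.86 to 0.85 and -0.95 to 0.66 at NCAPG, from -0.89 to 0.88 at NCAPH, from -0.44 to 0.10, -0.57 to 0.39 and -0.83 to 0.00 at RAD21, and from -0.14 to 0.19 and -0.22 to 0.25 at STAG2. The upper ends were reached without Dal-4, at STAG2 without Joey, and the cause was not tested. With DD-1 counted as a Golden Retriever, an NCAPG difference turned to 0.01 and STAG2 ones to -0.02 and -0.04. With DD-1 counted as a non-Golden Retriever, the first SMC4 difference was 0.51. The relations and the males-only differences without Dal-4 were added after seeing the data, and the relations of SMC3 and STAG1 turned to -0.04 and -0.31. Centring the arrays moved the median difference of all probe sets to 0.05. The difference in mean deviation, which had no test, ran from -0.49 to 0.61 for condensin, from -0.40 to 0.08 for cohesin and from -0.11 to 0.53 for condensin minus cohesin with 1 dog left out, with the upper ends again without Dal-4, and the last was -0.17 in males only. Without Dal-4 the relations of SMC4 and SMC1A to the proliferation list passed the threshold (adjusted p = 0.0168 and 4.1e-04, exact permutation test, against 0.204 and 0.191 with that dog). The differences of SMC4, SMC1A, SMC3 and STAG1 and those at NCAPG-B, RAD21-C, STAG2-B and STAG2-D kept their sign under every alternative run for them. No paired analysis was possible because replicate numbers only name dogs.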
